A study of Homo sapiens with 4 samples.

Results

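MHC class I molecules carry peptides made inside a cell to its surface, where T cells read them. The genes described here are 9 of that pathway: the heavy chains HLA-B and HLA-C, their light chain B2M, the peptide transporter subunits TAP1 and TAP2, the loading factor TAPBP, the transactivator NLRC5, and the immunoproteasome subunits PSMB8 and PSMB9. They were taken by gene name from a table of 18175 genes and loci, and all 9 were found once. Peptides are cut by the proteasome, whose catalytic subunits are replaced by those of the immunoproteasome in cells exposed to interferon. TAP moves the peptides into the endoplasmic reticulum, where TAPBP (tapasin) ties the transporter to empty heavy chain and B2M pairs. Melanoma cells are known to lower or lose parts of this pathway, which hides them from T cells.

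RNA was sequenced from 2 human melanoma cell lines, SK-MEL-28 and A375. In each line, the siLINC01291 group, whose siRNA targets the long non-coding transcript LINC01291, is compared with the siNC group, which received a control siRNA as its name tells. Another agent, EL, appears in the treatment description with no explanation, and whether any library received it is unknown. Each of the 4 groups held 1 library, so differences within a line have no replicate check, and the treatment was repeated only across the 2 lines. The sources used here do not give the number of siRNA sequences or the time of harvest. Libraries held between 29351240 and 31815336 counts. LINC01291 itself had 454 counts with siLINC01291 and 998 with siNC in SK-MEL-28, and 304 with siLINC01291 and 827 with siNC in A375. It fell by 1.34 on the log2 scale over both lines (SE 0.13, lower in 2 of 2 lines; edgeR quasi-likelihood test, Benjamini-Hochberg adjusted p = 0.0171). Markers of pigment cells set the lines apart. SK-MEL-28 libraries had MLANA at 321 and 286 FPKM (counts scaled to the library's total and the gene's length) and TYR at 88.2 and 77.6 FPKM, against 0.774 and 0.830 FPKM of MLANA and 0.0846 and 0.112 FPKM of TYR in A375. The lineage factor SOX10 was present in both, at 147 and 127 FPKM in SK-MEL-28 and 118 and 80.1 FPKM in A375 (siLINC01291 and siNC in each). Of 15 markers of leukocytes, fibroblasts, endothelium and keratinocytes, 4 had a row in the table (LYZ, LUM, PDGFRB and KRT14), none above 8.07 FPKM, and the other 11 were not analysed here.

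The promoters of these genes are shown first because they hold the letters that the pathway's known factors bind, and the levels of several of those factors are given further on. Classical class I and B2M promoters carry the SXY module, to which RFX, CREB and ATF, and NF-Y proteins bind and through which NLRC5 acts. RefSeq promoters (GRCh38.p14, 250 bases before to 50 after the start site, sense strand) were at hand for 8 of the 9 genes, and NLRC5 had no entry. Capitals mark CCAAT, the letters bound by NF-Y, TGACG, the core of the element bound by CREB and ATF proteins, and AANNGAAA, the letters bound by interferon regulatory factors, each searched on both strands. The windows lie at chr6:31357130-31357429, chr6:31272043-31272342, chr15:44711267-44711566, chr6:32853655-32853954 and chr6:32853942-32854241, the B2M and PSMB9 ones on the + strand and the others on the - strand.
HLA-B: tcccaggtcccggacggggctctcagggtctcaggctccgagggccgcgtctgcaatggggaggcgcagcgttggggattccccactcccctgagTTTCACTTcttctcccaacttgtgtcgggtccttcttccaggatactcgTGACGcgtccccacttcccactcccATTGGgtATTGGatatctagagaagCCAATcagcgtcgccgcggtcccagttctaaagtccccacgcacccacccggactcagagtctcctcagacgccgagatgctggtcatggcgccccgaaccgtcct
HLA-C: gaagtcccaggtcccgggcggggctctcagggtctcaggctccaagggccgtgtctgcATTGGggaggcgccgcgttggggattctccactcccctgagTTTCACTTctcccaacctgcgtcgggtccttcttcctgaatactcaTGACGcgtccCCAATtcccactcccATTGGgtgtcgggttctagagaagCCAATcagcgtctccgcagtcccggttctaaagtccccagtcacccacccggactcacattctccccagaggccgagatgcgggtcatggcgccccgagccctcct
B2M: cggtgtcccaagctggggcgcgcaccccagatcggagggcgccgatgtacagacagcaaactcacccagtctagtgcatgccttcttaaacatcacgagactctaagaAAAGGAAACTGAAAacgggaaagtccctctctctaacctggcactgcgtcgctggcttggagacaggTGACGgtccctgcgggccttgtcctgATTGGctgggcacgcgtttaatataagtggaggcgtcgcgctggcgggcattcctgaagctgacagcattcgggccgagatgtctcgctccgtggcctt
TAP1: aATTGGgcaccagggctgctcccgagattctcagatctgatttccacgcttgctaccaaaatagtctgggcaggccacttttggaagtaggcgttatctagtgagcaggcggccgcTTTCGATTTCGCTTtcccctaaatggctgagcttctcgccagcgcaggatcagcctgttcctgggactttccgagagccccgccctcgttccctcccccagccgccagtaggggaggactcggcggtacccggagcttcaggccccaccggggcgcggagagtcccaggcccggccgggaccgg
PSMB9: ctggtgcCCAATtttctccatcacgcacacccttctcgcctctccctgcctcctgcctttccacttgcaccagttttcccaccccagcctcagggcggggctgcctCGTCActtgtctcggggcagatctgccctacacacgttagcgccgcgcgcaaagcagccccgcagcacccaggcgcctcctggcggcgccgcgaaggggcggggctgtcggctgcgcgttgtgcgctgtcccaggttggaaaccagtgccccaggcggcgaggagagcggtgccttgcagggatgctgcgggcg

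HLA-B and HLA-C share most of this stretch, with 88.5% identity over 304 aligned columns. In both, AANNGAAA (at -155 in HLA-B and -151 in HLA-C, counted from the start site), TGACG (at -106 and -105) and a CCAAT at -56 follow each other in the same order, and HLA-C has a further CCAAT at -192. CCAAT occurs on either strand 3 times in the HLA-B window, 4 times in that of HLA-C and once in that of B2M. The 3 motifs were together in the HLA-B, HLA-C and B2M windows, and in 1.63% of the 35116 promoter windows of all genes. Singly, AANNGAAA was found in 22.8% of all windows, CCAAT in 34.6% and TGACG in 24.6%. Among the 8 genes, AANNGAAA was in a window of 7, PSMB9 being the exception, CCAAT in a window of 5 and TGACG in a window of 6. The AANNGAAA matches of TAP1, at -134 and -128, lie between the TAP1 and PSMB9 start sites but outside the PSMB9 window. TAP1 and PSMB9 are transcribed away from each other, with start sites 488 bases apart. Their windows shown above overlap. The CCAAT of TAP1 (at -249) and that of PSMB9 (at -243) are the same bases, read from opposite strands. A second TAP1 start site lies 1431 bases from that of PSMB9. A match of these letters is a description of the window and not a site of binding.

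In length-scaled levels, B2M led the 9 genes and NLRC5 came last in every library. B2M, the invariant light chain of all class I molecules, had 78.1 FPKM with siLINC01291 and 80.2 FPKM with siNC in SK-MEL-28, and 82.4 and 77.8 FPKM in A375. It thus stood at the 96.3 to 96.9 percentile of expressed genes (FPKM 1 or more) in each library. The heavy chain HLA-C followed, with 14.9 and 16.7 FPKM (siLINC01291 and siNC) in SK-MEL-28 and 23.1 and 22.0 FPKM in A375. TAPBP stood close to it, at 15.9 and 15.6 FPKM in SK-MEL-28 and 15.9 and 13.4 FPKM in A375. In the siLINC01291 library of SK-MEL-28 the order of HLA-C and TAPBP was turned round, and in both libraries of that line their 95% counting intervals overlapped. HLA-B had 8.33 and 10.1 FPKM in SK-MEL-28 and 12.1 and 13.4 FPKM in A375. In the A375 siNC library HLA-B and TAPBP differed by less than their counting intervals.

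The immunoproteasome and transporter genes were lower than these, except that PSMB8 stood above HLA-B in the SK-MEL-28 siLINC01291 library, where their counting intervals overlapped. PSMB8, which takes the place of the constitutive subunit PSMB5, had 8.82 and 7.78 FPKM (siLINC01291 and siNC) in SK-MEL-28 and 7.86 and 6.70 FPKM in A375. TAP1, a subunit of the peptide transporter, had 4.88 and 3.99 FPKM in SK-MEL-28 and 5.90 and 5.38 FPKM in A375. Its partner TAP2 had 4.05 and 4.42 FPKM in SK-MEL-28 and 5.54 and 6.45 FPKM in A375. The order of these partners was the same in both lines: TAP1 was above TAP2 with siLINC01291 and below it with siNC, although their counting intervals overlapped in the SK-MEL-28 siNC and A375 siLINC01291 libraries. PSMB9, which takes the place of PSMB6, had 2.79 and 3.47 FPKM in SK-MEL-28 and 2.67 and 2.93 FPKM in A375. NLRC5, the transactivator of class I genes, had 0.554 and 0.556 FPKM in SK-MEL-28 and 1.58 and 1.55 FPKM in A375. These levels rest on the gene lengths the authors divided by, which exceed the exon bases of the GENCODE 29 basic set. For B2M the authors' length was 5455 bases and the exons cover 2378.

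**Figure D1:**
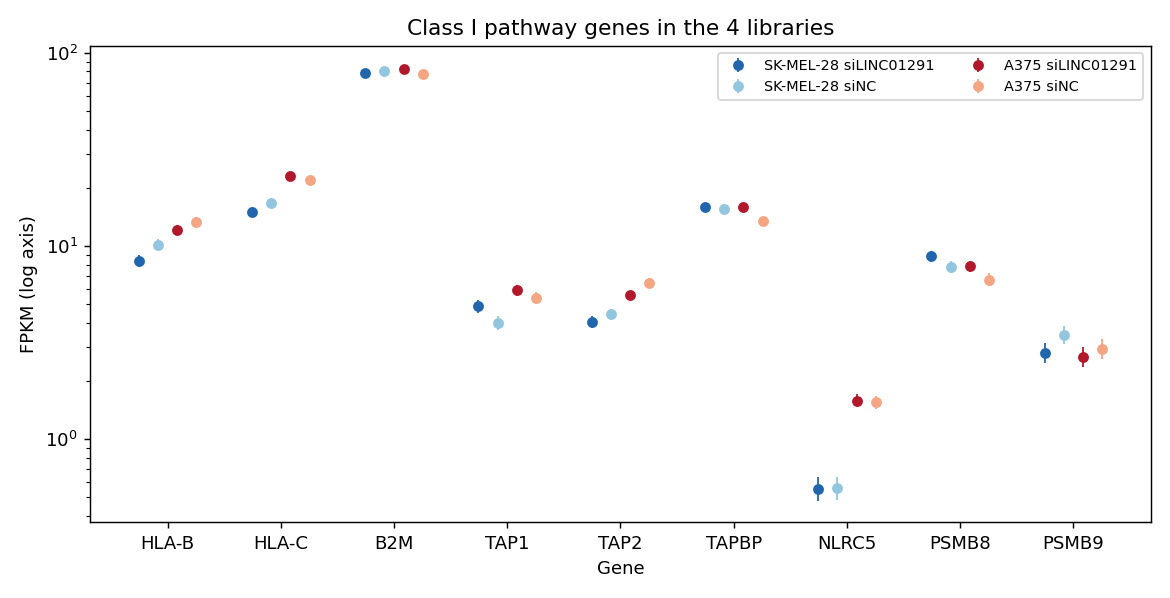
FPKM (log axis) of the 9 genes, left to right for each gene the SK-MEL-28 siLINC01291, SK-MEL-28 siNC, A375 siLINC01291 and A375 siNC libraries; bars are 95% Poisson intervals of the counts. B2M lies near 80 FPKM in all 4 libraries, and NLRC5 is below 1 FPKM in SK-MEL-28 and above it in A375.

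Several of these values are uncertain because genes share sequence. HLA-B and HLA-C coding sequences in GENCODE 29 are 91.7% identical, and 2.54% of the 50-base windows of the HLA-B transcript and 6.79% of those of HLA-C also occur in transcripts of other genes. Class I heavy chains differ between people and so between cell lines, and reads of these lines were counted on a single reference sequence. Between lines, a difference in HLA-B or HLA-C expression and a difference in how well their alleles match the reference cannot be told apart. For TAP2, 80.2% of the windows also occur in an overlapping read-through gene model. Exons of TAP1, PSMB8 and PSMB9 overlap those of the antisense gene PSMB8-AS1, for which no counts were found under that name. The overlaps given here are between GENCODE 29 models, and whether the counting used the same models is not known. Of 1586 exon bases of HLA-B, 405 are shared with HLA-C or with AL671883.2, a gene on the opposite strand. No source used here says that counting used the strand, so TAP1, PSMB8, PSMB9 and HLA-B are uncertain on this ground too. In GENCODE 29 on GRCh38, HLA-B spans 31269491 to 31357188 and HLA-C 31268749 to 31272130 of chromosome 6, both on the - strand. TAPBP lies at 33299694 to 33314387 (- strand), PSMB8 at 32840717 to 32844703 (- strand) and PSMB9 at 32844136 to 32859585 (+ strand) of the same chromosome. B2M lies on chromosome 15 at 44711487 to 44718877 and NLRC5 on chromosome 16 at 56989485 to 57083531, both on the + strand. B2M, TAPBP and NLRC5 shared no exon base with another gene and none of these windows.

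The first comparison asked whether siLINC01291 moved the pathway. No gene of the 9 passed the test over both lines, and none was shifted 2-fold in either line. The test called 0.222% of 13501 genes higher and 0.674% lower (edgeR quasi-likelihood test, cell line as block, adjusted p under 0.05), shares at which fewer than 1 call among 9 genes would be the background. At an unadjusted p under 0.05 the count was again 0 of 9 in this fit, and DESeq2 and limma gave 0 as well. With no filter on low genes, 1 of the 9 had an unadjusted edgeR p under 0.05, among 2864 genes that did. Estimates ran from -0.26 for PSMB9 to 0.17 for TAP1 on the log2 scale, with SEs between 0.08 and 0.14. Their 95% intervals in this fit reached at most 0.664-fold downward (PSMB9) and 1.36-fold upward (TAP1). Changes of 2-fold thus lay outside the interval of each gene under this model, which has 1 residual degree of freedom and borrows its spread from all genes. The median of the 9 was -0.02 and their median absolute shift 0.17, against 0.01 and 0.14 over all genes tested. In bulk RNA, fewer cells expressing a gene and less RNA per cell cannot be told apart.

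**Figure D2:**
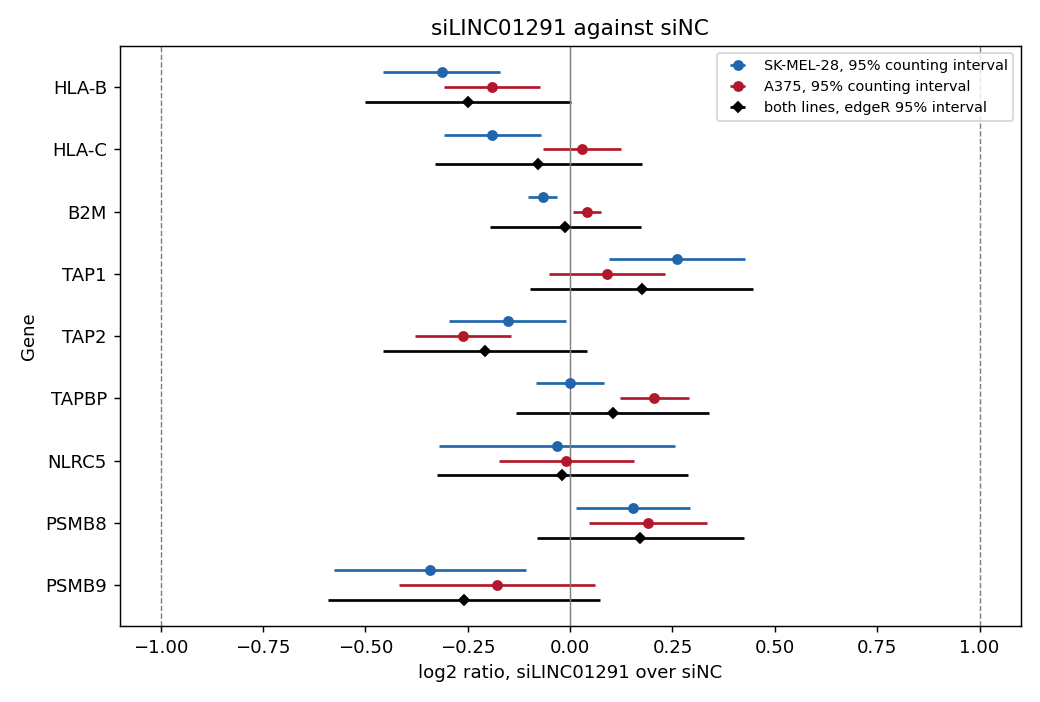
Log2 ratio of siLINC01291 over siNC for each gene in SK-MEL-28 (blue) and A375 (red) with 95% exact binomial intervals, which cover counting error only, and the edgeR estimate over both lines (black) with its 95% interval. All values lie well inside the dashed lines at 2-fold, and each black interval spans 0, that of HLA-B by the least.

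HLA-B stood nearest to the threshold. Its counts were 738 with siLINC01291 and 901 with siNC in SK-MEL-28, and 1159 and 1247 in A375. After TMM normalisation, 80.5% of the siNC level was left in SK-MEL-28 (95% exact binomial interval of the fold 0.729 to 0.888) and 87.7% in A375 (0.808 to 0.950). Over both lines the log2 change was -0.25 (SE 0.10, 95% interval -0.50 to 0.00, adjusted p = 0.297 by edgeR, lower in 2 of 2 lines). HLA-C, its neighbour on chromosome 6, was lower beyond counting error in SK-MEL-28 and not in A375, with 1102 and 1235 counts there (log2 ratio -0.19) and 1847 and 1707 in A375 (0.03). Its estimate over both lines was -0.08 (SE 0.10, edgeR adjusted p = 0.773). Whether the response of HLA-C differs between lines was not tested, since 1 library per group leaves no residual. B2M was all but level, at 12530 and 12892 counts in SK-MEL-28 (log2 ratio -0.07) and 14344 and 13149 in A375 (0.04).

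The partner subunits of the transporter lay on opposite sides of 0. TAP1 had 666 and 546 counts in SK-MEL-28 (log2 ratio 0.26) and 874 and 774 in A375 (0.09), and an estimate of 0.17 over both (SE 0.11, edgeR adjusted p = 0.492). For TAP2 there were 761 and 831 counts in SK-MEL-28 (log2 ratio -0.15) and 1128 and 1275 in A375 (-0.26), with an estimate of -0.21 (SE 0.10, edgeR adjusted p = 0.375). The ratio of TAP1 to TAP2 FPKM was accordingly 1.20 with siLINC01291 and 0.903 with siNC in SK-MEL-28, and 1.06 and 0.834 in A375. Both genes lie in the class II region of chromosome 6, TAP2 from 32821833 to 32838780 and TAP1 from 32845209 to 32853978 (GENCODE 29, GRCh38, - strand). TAPBP, which bridges the transporter to the heavy chain, differed beyond counting error in A375 and not in SK-MEL-28, with 2367 and 2324 counts in SK-MEL-28 (log2 ratio 0.00) and 2564 and 2097 in A375 (0.21). It did not pass over both lines (0.10, SE 0.10, edgeR adjusted p = 0.657).

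The immunoproteasome subunits also went apart. PSMB8 had 903 and 798 counts in SK-MEL-28 (log2 ratio 0.15) and 873 and 722 in A375 (0.19). Its estimate was 0.17 (SE 0.10, edgeR adjusted p = 0.466, higher in 2 of 2 lines). PSMB9 had 274 and 341 counts in SK-MEL-28 (log2 ratio -0.34) and 284 and 303 in A375 (-0.18), with an estimate of -0.26 (SE 0.14, edgeR adjusted p = 0.404, lower in 2 of 2 lines). These are the lowest counts of the 9 genes apart from NLRC5 in SK-MEL-28, and the A375 ratio of PSMB9 lay within counting error (fold interval 0.749 to 1.04). NLRC5 did not move in either pair beyond counting error, with 202 and 203 counts in SK-MEL-28 and 626 and 594 in A375.

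Relative to the constitutive subunits they replace, the immunoproteasome genes were minor in every library. PSMB8 amounted to 9.20% of PSMB5 with siLINC01291 and 7.40% with siNC in SK-MEL-28, and to 8.06% and 6.52% in A375, by FPKM. PSMB9 amounted to 3.39% and 4.36% of PSMB6 in SK-MEL-28, and to 3.73% and 4.24% in A375. For PSMB10, the third exchanged subunit, the share of PSMB7 was 2.10% and 2.26% in SK-MEL-28 and 1.87% and 1.66% in A375. The PSMB8 share was thus higher and the PSMB9 share lower with siLINC01291 in both lines, while PSMB10 went opposite ways. These ratios carry no test.

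**Figure D3:**
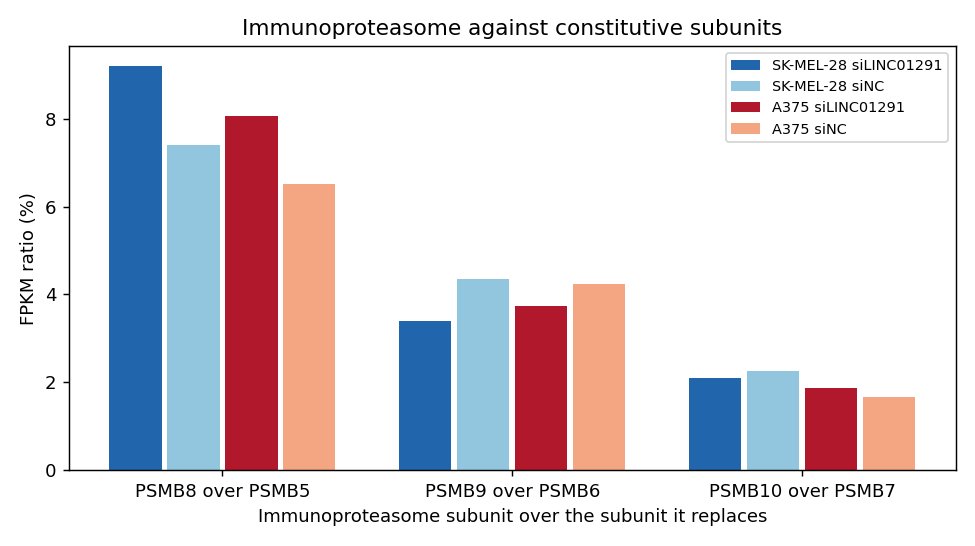
FPKM of PSMB8, PSMB9 and PSMB10 as a percentage of the constitutive subunit each replaces (PSMB5, PSMB6 and PSMB7), 1 bar per library; there are no replicates and no error bars. PSMB8 reaches 6.52 to 9.20% of PSMB5, and the other pairs stay at or below 4.36%.

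How far the small shifts exceed counting error was read against all genes. In SK-MEL-28 the counting interval of the ratio left out 1 for 7 of the 9 genes (2 higher, 5 lower), against 54% of 12336 expressed genes. In A375 it did so for 5 of the 9 (3 higher, 2 lower), against 48.7% of 13244. Shifts of 2-fold or more were seen for 0 of the 9 in each line, against 3.27% of expressed genes in SK-MEL-28 and 2.01% in A375. The sign was the same in both lines for 7 of the 9 genes, 4 lower and 3 higher, against 62.7% of all genes tested. HLA-C and B2M had opposite signs. These shares lie near the background, so they say nothing particular about the pathway.

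The lines themselves were compared next, in the same fit with the treatment as a term. NLRC5 was the gene that differed most: it had 0.554 and 0.556 FPKM in SK-MEL-28 against 1.58 and 1.55 FPKM in A375 (siLINC01291 and siNC in each). The line difference was -1.33 on the log2 scale, 2.51-fold lower in SK-MEL-28 (SE 0.13, edgeR adjusted p = 0.000144). It was alike in both pairs of libraries, at -1.33 with siLINC01291 and -1.31 with siNC. NLRC5 met the minimum of FPKM 1 in 2 libraries only through A375, so a gene as low there as in SK-MEL-28 would not have been tested. The other 8 genes had an FPKM of at least 1 in all 4 libraries.

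Differences of the other genes were small and went both ways. HLA-C was lower in SK-MEL-28 by a log2 difference of -0.35 (SE 0.10, edgeR adjusted p = 0.0231), TAP2 by -0.33 (SE 0.10, edgeR adjusted p = 0.0250) and HLA-B by -0.30 (SE 0.10, edgeR adjusted p = 0.0373). PSMB8 was higher by 0.36 (SE 0.10, edgeR adjusted p = 0.0206) and TAPBP by 0.28 (SE 0.10, edgeR adjusted p = 0.0409). PSMB9 at 0.32, B2M at 0.15 and TAP1 at -0.19 did not pass (edgeR adjusted p = 0.0752, 0.124 and 0.177). In all, 2 of the 9 were called higher and 4 lower, whereas the same test called 36.1% of all genes higher and 36.3% lower. The 4 include NLRC5, which entered the test only through A375. The median absolute difference of the 9 was 0.32, against 0.68 over all 13501 genes. The libraries of a line differ in treatment and nothing in the labels says that they came from separate cultures, so these p-values measure the spread between these libraries only.

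The calls of size below 1.5-fold depend on scaling and on the test. TMM raises SK-MEL-28 relative to A375 by 0.17 on the log2 scale over the deposited CPM and FPKM. Without TMM factors, a setting chosen after the data were seen, PSMB8 (0.19) and TAPBP (0.11) no longer passed (edgeR adjusted p = 0.150 and 0.362), TAP1 passed as lower (-0.36, edgeR adjusted p = 0.0267) and B2M turned to -0.02. The planned limma fit on log2(FPKM + 1) also passed TAP1 as lower (-0.29, limma adjusted p = 0.0362). PSMB8 (0.17) and TAPBP (0.10) did not pass in it (limma adjusted p = 0.127 and 0.336). By DESeq2, NLRC5 alone of the 9 passed. NLRC5 passed in 7 of the 7 fits run, HLA-C in 6, TAP2 in 5, HLA-B in 4, PSMB8 and TAPBP in 3, and TAP1 in 2. In each of these fits except the one with no filter, NLRC5 entered only through A375, where it is higher.

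**Figure D4:**
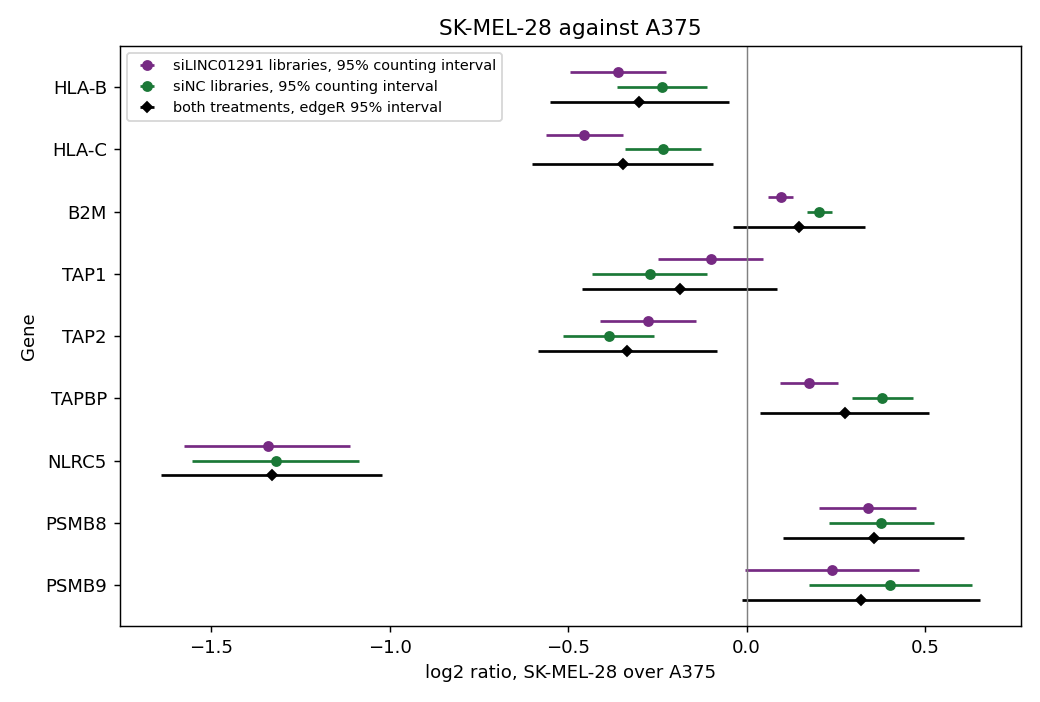
Log2 ratio of SK-MEL-28 over A375 for each gene in the siLINC01291 libraries (purple) and the siNC libraries (green) with 95% exact binomial counting intervals, and the edgeR estimate over both (black) with its 95% interval. The edgeR estimate of NLRC5 stands apart at -1.33, and those of the other 8 genes lie between -0.35 and 0.36.

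Light chain and heavy chains stood in different proportion in the lines. B2M FPKM was 9.37 times that of HLA-B with siLINC01291 and 7.90 times with siNC in SK-MEL-28, against 6.83 and 5.82 times in A375. To HLA-C the ratio was 5.23 and 4.80 in SK-MEL-28, against 3.57 and 3.54 in A375. HLA-C exceeded HLA-B by 1.79 and 1.65 times in SK-MEL-28 and by 1.91 and 1.64 times in A375. These ratios within a library do not depend on the scaling between libraries, but they carry the reservation on alleles given above.

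Other genes around the pathway were taken from 11 lists of 110 genes, of which 97 had a row and 86 were tested. With siLINC01291, 1 of the 86 fell and 0 rose over both lines. The fallen gene was NFYC, a subunit of the NF-Y factor that binds CCAAT. It had 3.77 FPKM with siLINC01291 and 11.5 FPKM with siNC in SK-MEL-28, and 4.53 and 10.6 FPKM in A375. NFYC was 2.73-fold lower over both lines (log2 change -1.45, SE 0.12, edgeR adjusted p = 0.0133). The other subunits, of which NFYA was named after its values were seen, did not pass: NFYA stood at 0.47 (SE 0.10, edgeR adjusted p = 0.0940) and NFYB at 0.00 (SE 0.12, edgeR adjusted p = 0.998). The 5 genes whose promoter windows shown above hold CCAAT went both ways in the same libraries and did not pass, with log2 changes of -0.25 for HLA-B, -0.08 for HLA-C, -0.01 for B2M, 0.17 for TAP1 and -0.26 for PSMB9. The CCAAT of TAP1 and that of PSMB9 are the same bases, so they are not separate sites. Whether NFYC bears on the 5 genes was not tested.

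No list had a second call with siLINC01291, and list medians lay between -0.16 and 0.10, against 0.01 over all genes. Of 8 tested partners in peptide loading, such as the glycoprotein sensor UGGT1 (0.03, SE 0.08) and the chaperone CANX (-0.03, SE 0.07), 0 passed. Of 8 tested genes of interferon receptors and signalling and 8 interferon response genes, 0 passed, with IFNGR2 at 0.12 (SE 0.10), ISG15 at -0.04 (SE 0.17) and IFI6 at 0.14 (SE 0.11). Beyond the rule for naming, and picked by its values, MICA, a stress ligand read by NK cells, was lower in both lines (log2 ratios -0.54 in SK-MEL-28 and -0.52 in A375) and did not pass (edgeR adjusted p = 0.0862). TRAF3, picked in the same way, a signalling adaptor placed among negative regulators of class I, had log2 ratios of 1.21 in SK-MEL-28 and 0.34 in A375 and did not pass (edgeR adjusted p = 0.139).

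**Figure D5:**
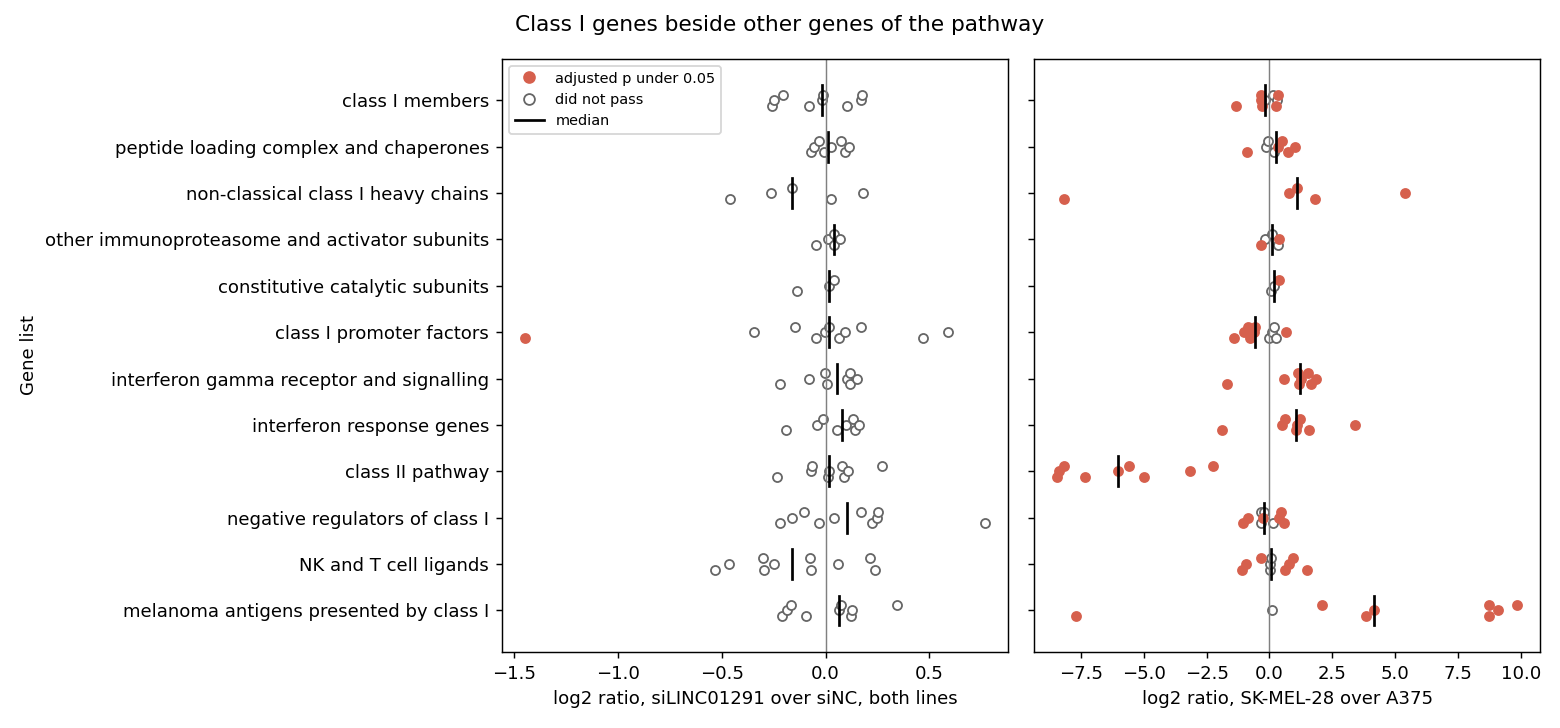
Log2 ratios over both lines of siLINC01291 over siNC (left) and of SK-MEL-28 over A375 (right) for the 9 class I genes and the tested genes of 11 further lists; each point is a gene, filled where it passed edgeR's test, and the bar is the list's median. On the left the filled point is NFYC at -1.45, and on the right the 9 class II genes all lie below 0.

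Between the lines, 39 of the 86 tested list genes were called higher in SK-MEL-28 and 27 lower. The same test called 36.1% of all genes higher and 36.3% lower, and the counts below are to be read against these shares. Where a gene was below FPKM 1 in both libraries of a line, it entered the test only through the other line and had to differ, so such genes are counted apart. The interferon side was higher in SK-MEL-28, where 7 of 8 receptor and signalling genes and 7 of 8 response genes were called higher, against 36.1% of all genes. Of the response genes, 2 (OAS1 and IFIH1, the second named for this reason) entered only through SK-MEL-28, and of the other 6, 5 were called higher. IFNGR2, a receptor subunit for interferon gamma, had 35.3 and 31.0 FPKM in SK-MEL-28 against 12.2 and 11.2 FPKM in A375 (siLINC01291 and siNC in each) and was 3.17-fold higher (edgeR adjusted p = 1.53e-05), and IFI6 10.6-fold higher (edgeR adjusted p = 2.19e-06). SOCS3, a feedback inhibitor, and IFI44 were lower (3.26-fold and 3.72-fold; edgeR adjusted p = 0.000106 and 8.30e-05). Of the 9 class I genes in the same libraries, PSMB8 and TAPBP were called higher, and NLRC5, HLA-B, HLA-C and TAP2 lower.

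Of 5 tested non-classical heavy chains, 4 were called higher in SK-MEL-28 and 1 lower, but HLA-F and MR1 entered the test only through SK-MEL-28 and CD1D only through A375. The direction of these 3 follows from the filter, and their values are a description. HLA-F had 19.6 and 16.5 FPKM in SK-MEL-28 against 0.494 and 0.456 FPKM in A375 (edgeR adjusted p = 7.95e-07). HLA-E, which NK cell receptors read, had 75.0 and 64.2 FPKM in SK-MEL-28 against 34.9 and 37.6 FPKM in A375, 2.15-fold higher (edgeR adjusted p = 0.000159). MR1 and HFE were also called higher, at 3.51 and 1.74-fold (edgeR adjusted p = 6.41e-05 and 0.00241). CD1D was lower, with 0 and 1 counts in SK-MEL-28 against 197 and 220 in A375. As class I paralogs, HLA-E and HLA-F share the reservation on alleles and near-identical sequence.

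Class II genes were far lower in SK-MEL-28, where all 9 tested genes of the list were called lower. Of these, 8 were below FPKM 1 in both SK-MEL-28 libraries and entered the test only through A375, so the count gives no support and the values are a description. CIITA, the class II transactivator and a relative of NLRC5, had 85 and 65 counts in SK-MEL-28 against 2898 and 2785 in A375; it was named after its values were seen. HLA-DRA had 16 and 15 counts in SK-MEL-28 against 6582 and 5757 in A375, and the invariant chain CD74 had 82 and 62 counts against 30845 and 29081. HLA-DRB1 and HLA-DOA had 2 counts or fewer in each SK-MEL-28 library.

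Of 11 tested promoter factors, 6 were called lower in SK-MEL-28 and 1 higher, against 36.3% of all genes lower and 36.1% higher. Whether this list leans lower than all genes was not tested. Among the 8 that are RFX, CREB, ATF or NF-Y proteins, 5 were called lower, 1 higher and 2 were not called. ATF1 was 2.64-fold lower (edgeR adjusted p = 0.000158), NFKB1 1.99-fold (edgeR adjusted p = 0.000147), NFYB 1.82-fold (edgeR adjusted p = 0.000856) and RFX5, a subunit of the RFX complex, 1.72-fold lower (edgeR adjusted p = 0.000375). CREB1 was 1.58-fold higher (edgeR adjusted p = 0.00164). Among loading partners, the glycoprotein sensor UGGT1 was 2.03-fold higher in SK-MEL-28 and CANX 1.65-fold higher (edgeR adjusted p = 7.24e-05 and 0.000159), while the peptide editor TAPBPL was 1.87-fold lower (edgeR adjusted p = 0.00510). Of the proteasome lists, the activator subunit PSME2 (1.32-fold) and PSMB6 (1.29-fold) were higher and PSME3 was 1.28-fold lower (edgeR adjusted p between 0.00661 and 0.00821).

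Of 9 tested antigens that class I presents in melanoma, 7 were called higher in SK-MEL-28 and 1 lower. However, 4 of the 9 were below FPKM 1 in both A375 libraries and entered only through SK-MEL-28, and of the other 5, 3 were called higher and 1 lower. The pigment cell antigens TYR (9.86) and PMEL (9.10) had log2 differences of this size, whereas MAGEA4, an antigen of germ cells and tumours, stood at -7.68 (edgeR adjusted p = 4.86e-07, 3.52e-07 and 4.65e-07). TYR is among the 4 that entered only through SK-MEL-28, so its value is a description. Negative regulators of class I went both ways, 3 higher and 3 lower of 10 tested, which is no more than the share of all genes: SUSD6 (0.57), IRGQ (0.44) and TMEM127 (0.38) were called higher, and EED (-1.03), WWP2 (-0.85) and SUZ12 (-0.24) lower, with edgeR adjusted p between 0.000131 and 0.0413. Of 10 tested ligands of NK and T cell receptors, 4 were called higher, led by MICA (2.82-fold, edgeR adjusted p = 3.40e-05), and 3 lower, led by ULBP2 (-1.09, edgeR adjusted p = 0.000898), again near the share of all genes.

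Genes with the profile most like the median of the 9 were sought among 8248 genes that reached FPKM 5 in some library. The median profile was nearly flat, with centred log2 CPM between -0.01 and 0.05 in the 4 libraries. LRRC41, ABL2, BAG6, LGALS3BP and FOXJ3 came closest, at Euclidean distances of 0.04 to 0.05 log2 units over 4 libraries. All 5 are themselves nearly level across the libraries in the TMM-scaled CPM used for the profile. In the deposited FPKM, which lack TMM factors, each was somewhat lower in SK-MEL-28. BAG6, for instance, had 37.9 and 38.2 FPKM in SK-MEL-28 and 44.1 and 43.2 FPKM in A375.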

How the data were processed

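The 9 genes and the lists were chosen with earlier results of these data known. Per the labels' protocols, poly(A) RNA was captured on oligo(dT) beads, reads were cleaned and freed of duplicates by fastp, HISAT2 aligned them, StringTie added new transcripts to the known genes, and HTSeq did the counting. Removal of duplicates can lower the counts of abundant genes. In the submitters' processing notes hg19 stands as the build, and edgeR and DESeq2 are named without roles. The deposited counts are raw whole numbers. The deposited CPM equal each count over a constant per library, and the deposited FPKM divide these CPM by 1 length per gene. The deposited TPM were not used. Counts outside the table made up 0.215 to 0.343% of a library.

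Within a line, log2 ratios used TMM factors and 2 as the prior count (edgeR 4.0.16, R 4.3.3), with 95% exact binomial intervals that cover counting error only. The test over both lines was edgeR's quasi-likelihood fit with terms for cell line and treatment, so that pairs are the libraries of 1 line. It covered the 13501 genes that reached FPKM 1 in 2 or more libraries, with Benjamini-Hochberg adjustment over all of them. The 95% intervals of this fit use the moderated degrees of freedom. A trial on simulated counts gave all genes a common dispersion and used changes of 1.5-fold or more. It therefore cannot show how the test performs on shifts as small as those of the 9 genes with siLINC01291. Alternatives were DESeq2 1.42.0, limma 3.58.1 on log2(FPKM + 1), DESeq2 size factors, no TMM factors, no filter, no replicate block, and each pair left out. Named were the 9 genes, list genes that passed either test (up to 4 per list and direction, by size), LINC01291 and the 5 nearest profiles, and exceptions are marked. Coordinates and transcripts are from GENCODE 29 (GRCh38), promoters from RefSeq (GRCh38.p14). Python 3.11.15 with pandas 2.3.3, scipy 1.17.1, biopython 1.88 and matplotlib 3.10.9 was used.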

Additional observations from a re-analysis of the deposited data

Results flagged for a closer look

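B2M had log2 ratios of siLINC01291 to siNC of -0.0667 in SK-MEL-28 and 0.0409 in A375. It was singled out because the signs are opposite and each exceeds counting error, with 12530 or more counts in each library. The difference between the lines was not tested, since each group has 1 library.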

How the results depend on the processing

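The count of 0 of 9 called with siLINC01291 held under each of the 6 other fits, and the counts of 0 past 2-fold in each line held with DESeq2 size factors, a prior count of 0.5, FPKM + 1 and a threshold of 1.5-fold. Without the replicate block (the cell line as a term), 0 genes of the whole table passed edgeR's test upward or downward (51 at an unadjusted p under 0.05), against 30 higher and 91 lower with it. With no filter 146 and 238 passed, by DESeq2 99 and 203, by limma 1 and 5. For SK-MEL-28 against A375, 6 of the 9 passed, among them NLRC5, which met the filter only through A375. The count was 2 without the treatment term (the replicate block) and 1 by DESeq2, and 5 or 6 under the other 4, though not always of the same genes. Under the other fits, signs turned only for B2M and NLRC5. Over both lines, B2M stood at 0.0215 by limma and 0.0231 without TMM factors, and NLRC5 at 0.00902 by limma and 0.0175 without TMM factors. Between lines, B2M stood at -0.0170 by limma and -0.0208 without TMM factors, against 0.148 in the main fit. TMM factors, which limma on FPKM did not use, raise SK-MEL-28 relative to A375 by 0.168. The cause was not tested. With a pair of libraries left out, HLA-C ranged from -0.190 to 0.0291 and B2M from -0.0667 to 0.0409. For NLRC5 in SK-MEL-28, at 202 and 203 counts, the counting interval of the fold spans 0.801 to 1.19, and shifts within it were not detectable at this depth.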
